A study of Mus musculus with 10 samples.

Results

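Cajal-Retzius-like nuclei were 104 of 15560 nuclei from wild-type mouse hippocampus, a share of 0.668% (exact binomial 95% interval 0.546% to 0.809%). They were chosen by counts of unique molecular identifiers (UMIs, 1 per captured RNA molecule) in nuclei with at least 500 UMIs. Trp73, Lhx1, Lhx5, Ebf3, Diaph3 and Ndnf together had to give at least 3 UMIs, from at least 2 of these 6 genes, and at least 0.1% of the nucleus's UMIs. Gad1, Gad2 and Slc32a1, which mark GABA neurons, had to be at 0, and Slc17a7, the vesicular glutamate transporter of most hippocampal excitatory neurons, at 1 UMI or less. Those 10 genes are therefore described here and support nothing.

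The series holds 10 samples in 1 group: hippocampus of unstimulated C57B/6J wild-type mice aged 4 to 7 months, profiled by single-nucleus RNA sequencing of transcript 3′ ends. The titles of 4 samples carry the words RNASET2 and control, although their genotype is given as wild type like the others. The barcodes carry 7 different suffixes, called sets 1 to 7 here. The sources used here do not say which samples or mice a set holds, so all nuclei are 1 sample and no test between samples was possible. Intervals below are 95% intervals that cover counting error alone, not differences between mice.

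Cajal-Retzius cells are early-born neurons of the outermost layer of the cortex and of the hippocampal fissure. They secrete reelin, a large extracellular protein that binds the receptors ApoER2 (gene Lrp8) and VLDLR on other neurons, where the adaptor Dab1 passes the signal on and positions migrating neurons and shapes dendrites. They are glutamatergic, depend on the p53-family factor p73 (gene Trp73) and mostly die after birth, although some persist in the adult hippocampus.

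The 4 promoters below are shown because they belong to genes the results turn on and hold a motif relevant to the factors that chose the nuclei. They come from RefSeq (GRCm38.p6) and run from 250 bases before to 50 bases after the annotated start. Capitals mark TAATTA, the core bound by LIM homeodomain proteins such as Lhx1 and Lhx5, or 1 unit of the p53-family motif, both searched on both strands. The full p53-family element is a pair of such units, and only the single unit was searched. Reln (chr5:22344656-22344955, minus strand) and Mdm2 (chr10:117710709-117711008, minus strand) hold the p53-family unit. Tmem163 (chr1:127677972-127678271, minus strand) and the second start of Slc17a6 (chr7:51624387-51624686, plus strand) hold TAATTA.
Reln: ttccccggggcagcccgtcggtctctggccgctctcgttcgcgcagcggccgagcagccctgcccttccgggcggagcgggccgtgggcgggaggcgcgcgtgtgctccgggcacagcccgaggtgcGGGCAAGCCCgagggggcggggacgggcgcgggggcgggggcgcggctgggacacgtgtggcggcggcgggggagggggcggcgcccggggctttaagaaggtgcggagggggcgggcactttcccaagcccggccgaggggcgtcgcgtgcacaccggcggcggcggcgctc
Mdm2: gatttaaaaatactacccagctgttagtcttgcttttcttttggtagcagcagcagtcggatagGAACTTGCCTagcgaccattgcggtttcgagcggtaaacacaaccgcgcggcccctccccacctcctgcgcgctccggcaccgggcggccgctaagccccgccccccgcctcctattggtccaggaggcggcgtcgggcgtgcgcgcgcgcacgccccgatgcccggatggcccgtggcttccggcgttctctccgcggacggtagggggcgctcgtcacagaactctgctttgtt
Tmem163: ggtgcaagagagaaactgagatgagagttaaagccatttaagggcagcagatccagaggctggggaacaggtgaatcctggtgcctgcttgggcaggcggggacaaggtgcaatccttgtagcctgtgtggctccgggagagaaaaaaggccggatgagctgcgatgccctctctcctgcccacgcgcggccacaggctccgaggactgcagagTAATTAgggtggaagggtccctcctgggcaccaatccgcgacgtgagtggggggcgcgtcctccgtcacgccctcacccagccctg
Slc17a6: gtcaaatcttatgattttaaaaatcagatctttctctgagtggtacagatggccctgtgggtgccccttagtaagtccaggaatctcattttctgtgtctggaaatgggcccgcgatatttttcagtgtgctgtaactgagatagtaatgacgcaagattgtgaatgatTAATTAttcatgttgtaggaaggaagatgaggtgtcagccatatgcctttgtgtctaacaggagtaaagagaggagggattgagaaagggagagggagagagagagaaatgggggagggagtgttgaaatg
The capitals begin 123 bases before the start in Reln, 186 in Mdm2, 36 in Tmem163 and 81 in Slc17a6. The Reln window had a GC content of 80.7%. Of the 15 genes that led the comparisons below as highest, 13 were in the promoter table. A gene was counted if any of its starts held the motif, while the shares in brackets count single promoters. Slc17a6, with 2 starts, held TAATTA at the second only. Among the 13, 3 held TAATTA (5.29% of all 32851 promoters did) and 3 held CAGCTG, an E-box (16.3%). The p53-family unit was held by 1 (8.36%) and the palindromic motif of the Ebf factors by 0 (0.904%). These are letter matches in 1 window and not binding sites.

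The 104 nuclei were shallower than the classes compared with them below. Their UMI totals ran from 514 over a median of 2202.5 to 14342, against a median of 10505 in 3219 nuclei of an excitatory gate (at least 2 Slc17a7 UMIs and no Gad1, Gad2 or Slc32a1) and 9181 in 1193 nuclei of an inhibitory gate (at least 3 UMIs from 2 or more of Gad1, Gad2 and Slc32a1, and Slc17a7 at 1 or less). The median over all 15560 nuclei was 4069 UMIs. Minimum counts in these gates favour deep nuclei, and the 0.1% limit of the rule leaves out deep ones, so part of this gap was set in advance. Because depth differed, levels are given as UMIs per 1000000 UMIs of the class (CPM). By barcode set 1 to 7, the nuclei numbered 22, 23, 17, 6, 4, 0 and 32. Set 7 stands apart: it gave 32 of its 666 nuclei (4.80%), 69.8% of its nuclei fell in an oligodendrocyte gate, and it held 2 excitatory and 0 inhibitory nuclei. Set 6 gave 0 of 2384, which allows a share of up to 0.126% when 3 nuclei are taken as the limit. Of all nuclei, 21 barcode sequences occurred in more than 1 set, and 0 of the 104 carried such a sequence.

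All 7 markers listed for Cajal-Retzius cells were found in the 104 nuclei, though not evenly. Ndnf, a secreted neuronal factor, had UMIs in 87 nuclei (412 UMIs) and Trp73 in 76 (193 UMIs). Ebf3, a helix-loop-helix factor, had UMIs in 66 (201 UMIs), Lhx1 in 54 (83 UMIs) and Lhx5 in 18 (23 UMIs). Diaph3, an actin-nucleating formin, had 4 UMIs in 3 nuclei; the interval of its level (3.55 to 33.3 CPM) covered the levels of inhibitory nuclei, 7.55 CPM, and oligodendrocyte nuclei, 21.4 CPM. Of the 6 genes, 38 nuclei had 2, 37 had 3, 28 had 4 and 1 had 5. Trp73 was not restricted to them: 511 nuclei had a Trp73 UMI and 76 of these were chosen, and 52 of the 119 nuclei with at least 2 were. The chosen nuclei held 193 of all 771 Trp73 UMIs.

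Nuclei on both sides of the rule's edge had Reln. The 11 nuclei with exactly 3 UMIs of the 6 genes had a median of 6 Reln UMIs, 10 of them with at least 1. Just outside, 3 nuclei with 2 UMIs from 2 genes that met the other criteria had Reln UMIs in all 3, with a median of 4. Of 206 nuclei with 3 or more UMIs from 2 or more genes, 90 were left out for lying under 0.1% of their UMIs, 10 for GABA genes alone, 1 for Slc17a7 alone and 1 for both.

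Reelin, the defining product of these cells, was not part of the rule. Reln had 2227 UMIs in the 104 nuclei and was found in 91 of them (87.5%, 79.6% to 93.2%). Counts per nucleus ran from 0 over a median of 13.5 to 111. With 0.303% of all UMIs, the nuclei held 20.4% of all 10905 Reln UMIs. Summed, Reln stood at 7250 CPM, against 23.4 CPM in excitatory and 369 CPM in inhibitory nuclei, ratios of 310 (287 to 336) and 19.6 (18.6 to 20.7). In 193 neurogliaform-like nuclei (inhibitory with Adarb2 and Lamp5 or Ndnf), the inhibitory class best known for Reln, it was 943 CPM, a ratio of 7.69 (7.23 to 8.18). After thinning every nucleus to 1000 UMIs, with 21 of the 104 left out as too shallow, 83.1% of the nuclei had a Reln UMI. That share was 35.2% of neurogliaform-like, 19.4% of inhibitory, 1.55% of excitatory and 1.34% of oligodendrocyte nuclei. Without thinning, Reln was found in 59.6% of neurogliaform-like, 37.9% of inhibitory, 8.14% of excitatory and 2.57% of oligodendrocyte nuclei, whose median depth was 1822.5 UMIs. Where the Reln UMIs of the oligodendrocyte nuclei came from was not tested. Reln is at chr5:21884454-22344702 (GRCm38, minus strand).

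**Figure D1:**
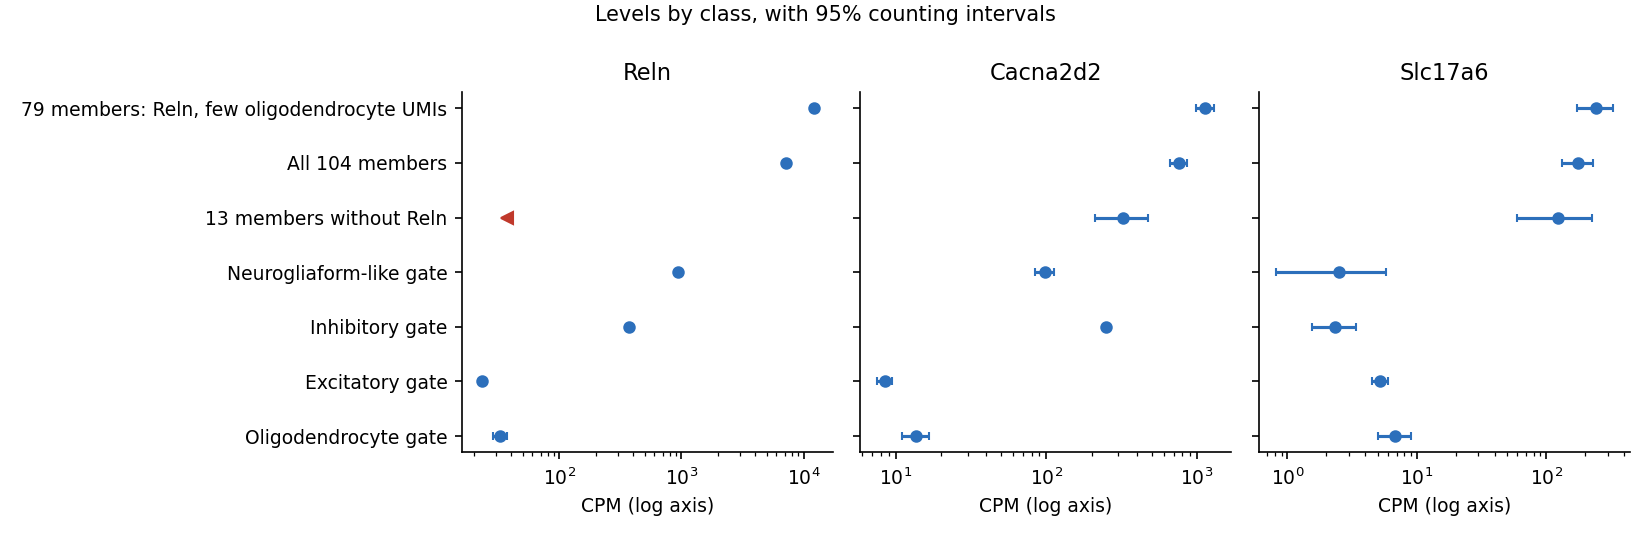
Levels of Reln, Cacna2d2 and Slc17a6 in CPM (log axis) for 7 classes of nuclei; points are summed levels, bars 95% counting intervals and the red triangle the upper level that a count of 0 allows. Reln stands at 7250 CPM in all 104 nuclei and at 943 CPM in neurogliaform-like nuclei.

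A high Reln count alone did not define the nuclei. At least 20 Reln UMIs were found in 43 of the 104 and in 89 other nuclei, 56 of these in the inhibitory gate. The highest count outside, 129, exceeded the highest inside, 111.

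The label did not hold for all of them: 13 had no Reln UMI. Of these 13, 11 were in set 1, 1 in set 3 and 1 in set 4, and they were deep, with a median of 6094 UMIs. Their summed Reln count of 0 allows up to 37.0 CPM, against 9847 CPM in the 91. All 13 had Ebf3 and 11 had Lhx1, but Trp73 was found in 1 and Ndnf in 2. Ebf2, a second Ebf factor, had 154 UMIs in 10 of the 13 (1900 CPM) and 2 UMIs in the 91 (8.84 CPM). Calb2, the calcium buffer calretinin, had 21 UMIs in 10 of the 13 and 6 UMIs in 6 of the 91. Tenm3, a cell adhesion protein, stood at 5763 CPM against 17.7 CPM. Kitl, the ligand of the receptor Kit, had 46 UMIs against 0, and Dcx, a microtubule protein of young neurons, 20 against 0. In the other direction Dach1, Eln, Cobll1, Creb5 and Ramp1 had 0 UMIs in the 13. The 13 are given no cell type name here, and these genes were picked after their values were seen. Of 9 hypothalamic and mammillary markers, 8 were at 0 in the 13 and Sim1 had 4 UMIs, so that the list stood at 49.4 CPM, against 2.74 CPM in excitatory nuclei. Of 10 thalamic and habenular markers 8 were at 0, and the list stood at 1543 CPM, against 1203 CPM in the 91, from 124 UMIs of Rora and 1 of Prkcd.

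**Figure D2:**
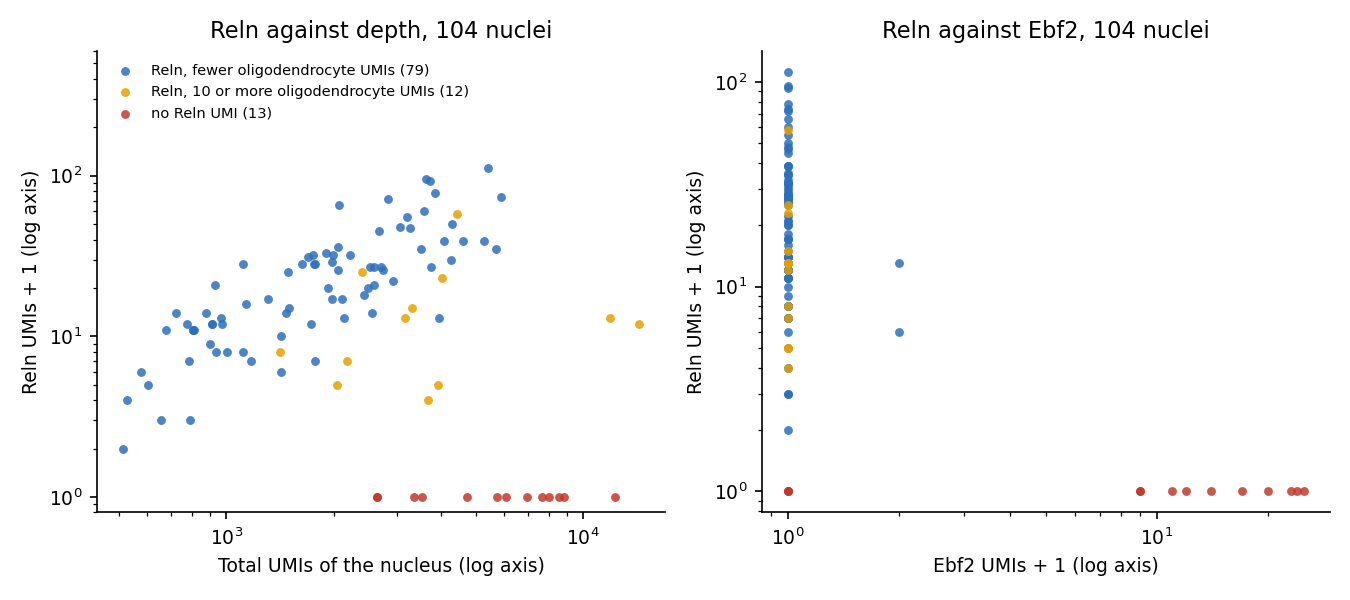
Each point is 1 of the 104 nuclei. Reln UMIs + 1 are plotted against total UMIs (left) and against Ebf2 UMIs + 1 (right), all on log axes; the 13 nuclei without Reln (red) lie between 2643 and 12258 UMIs, and 10 of them carry Ebf2.

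A further 12 of the 91 had 10 or more UMIs of 8 oligodendrocyte markers, as had 1 of the 13. By set 1 to 7 these 13 nuclei numbered 1, 0, 3, 1, 1, 0 and 7. Summed over the 104, these markers stood at 3239 CPM, with a median of 0 and a highest value of 290 UMIs in 1 nucleus. The doublet caller Scrublet called 1 of the 104, but it marked under 0.5% of nuclei in sets 2, 5, 6 and 7 and was not taken to have worked there. Each result below is therefore given for all 104 and, where the value moves by over 1.5 times, also for the 79 nuclei with Reln and under 10 oligodendrocyte UMIs. That subset was set after seeing the data and is chosen on Reln, so its Reln level is a description. It numbered 11, 23, 13, 4, 3, 0 and 25 in sets 1 to 7, with a median of 1905 UMIs. In the 79, the 8 oligodendrocyte markers were at 325 CPM, and the 10 pericyte, fibroblast and meningeal markers were all at 0.

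Reln was lowest in sets 1 and 7, which hold most of the nuclei left out of the 79. Over all nuclei chosen in a set it was 3647 CPM in set 1, 10853 in set 2, 10200 in set 3, 9847 in set 4, 7164 in set 5 and 4848 in set 7. In the 79 it was 13379, 10853, 12050, 19623, 8349 and 11424 CPM in the same order, with 4 nuclei in set 4 and 3 in set 5. Without those nuclei sets 1 and 7 lay within the range of the others. The 11 nuclei left out of set 1 all had 0 Reln UMIs, so its rise was set in advance by the choice on Reln. Trp73 in the 79 lay between 777 CPM in set 1 and 2277 CPM in set 5, the latter from 6 UMIs. Reln ratios to excitatory, inhibitory and neurogliaform-like nuclei were 519, 32.8 and 12.8 in the 79.

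Marker lists of other cell types differed in level. The 8 excitatory markers stood at 166 CPM in the 104 nuclei, against 2180 CPM in the excitatory gate. Slc17a7 is among these markers. The rule capped it in the 104 and the excitatory gate required it, so part of this gap was set in advance. Of 7 inhibitory markers Gad1, Gad2 and Slc32a1 were at 0 by the rule and Dlx1 was at 0 without it. The inhibitory markers summed to 775 CPM in the 104 and to 118 CPM in the 79. One list was as high as in its own gate. The 8 neurogliaform-like markers stood at 10769 CPM in the 104 and 16874.5 CPM in the 79, against 11998 CPM in the neurogliaform-like gate. That list includes Reln and Ndnf, which gave 2227 and 412 of its 3308 UMIs in the 104. Cplx3 was at 0 in the 104, and Lamp5 and Cplx3 were at 0 in the 79. The 8 dentate granule markers summed to 1540 CPM in the 104 and 1270 CPM in the 79, against 1183 CPM in the excitatory gate and 5220 CPM in dentate granule nuclei, and C1ql2 and Glis3 were at 0. The 10 thalamic and habenular markers summed to 1292 CPM in the 104 and 1370 CPM in the 79, against 651 CPM in excitatory and 999 CPM in inhibitory nuclei. Nearly all of that was Rora, a nuclear receptor also found in other neurons, with 384 of the 397 UMIs, and 6 of the 10 were at 0. The 8 astrocyte markers stood at 186 CPM in the 104 and 242 CPM in the 79, against 249 CPM in excitatory and 97.0 CPM in inhibitory nuclei, with Aqp4, Gja1, Gfap and Fgfr3 at 0 in the 104. The part of these lists in the results was not tested.

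Genes were then compared with the excitatory and with the inhibitory nuclei by the ratio of CPM, each side summed over all sets. Set 7 gave 32 of the 104 but 2 excitatory and 0 inhibitory nuclei, and set 6 gave 0, 230 and 71. The ratios thus compare nuclei of partly different sets. Genes with a mean of at least 40 CPM over both sides entered, without the 10 rule genes, and a gene counted as higher at a ratio of 2 or more and as lower at 0.5 or less. A gene that passes this filter through 1 side alone must be higher on that side. The counts and shares of gene lists below are therefore descriptions and not support. Against excitatory nuclei 827 of 4481 genes (18.5%) were higher and 553 (12.3%) lower. Against inhibitory nuclei 601 of 4625 (13%) were higher and 471 (10.2%) lower. In the 79, 734 (16.4%) and 737 (15.9%) were lower and 828 (18.5%) and 621 (13.4%) higher. Against the neurogliaform-like nuclei, 696 of 4563 genes (15.3%) were higher and 478 (10.5%) lower, and 707 (15.5%) and 713 (15.6%) in the 79. The median log2 ratio over all genes was 0.29 and 0.16. Counted per nucleus without scaling, a nucleus of the 104 held on average 0.248 and 0.295 of the UMIs of an excitatory or inhibitory nucleus. On that scale several ratios above 1 fall below it, as given beside the genes concerned where the ratio was 2 or more.

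Genes with the same direction in sets 1, 2 and 3 were ranked by the ratio with 5 CPM added to both sides. For the genes ranked highest and lowest, agreement in direction over these sets was thus set in advance. Reln was the highest gene against excitatory nuclei. Cacna2d2, an auxiliary subunit of calcium channels, was among the 12 highest, with 758 against 8.44 CPM, a ratio of 89.9 (75.6 to 107), and was found in 80 of the 104. Within sets 1, 2 and 3, which hold at least 10 nuclei on each side, its ratio was 110, 88.3 and 110. Inhibitory nuclei had more of it, and the ratio to them was 3.04 (2.65 to 3.47), or 0.898 per nucleus without scaling.

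Utrn, encoding the dystrophin relative utrophin, was at 1468 CPM, 80.8 times its excitatory level (71.6 to 91.0) and 6.71 times its inhibitory level (137 and 11.4 in the 79). Dach1, a transcriptional regulator, was at 1823 CPM with ratios of 52.8 (47.8 to 58.4) and 40.6 (36.0 to 45.8). In the 79 nuclei these were 90.2 and 69.4. Eln, encoding the matrix protein elastin, was 70.1 and 88.6 times higher (123 and 155 in the 79) and had UMIs in 52 nuclei.

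Hs3st5, a heparan sulfate sulfotransferase, had ratios of 45.2 and 4.97, and 74.0 and 8.13 in the 79. Tmem163, a zinc transporter of vesicles, was found in 94 of the 104 nuclei, with ratios of 39.6 (35.3 to 44.3) and 26.4. Tmem163 was also found in the 13 nuclei without Reln, at 888 CPM, as was Cacna2d2 at 321 CPM, while Dach1 and Eln were at 0 there. Lrig3, a leucine-rich repeat membrane protein, stood at 215 CPM against 1.57 CPM in excitatory nuclei, a ratio of 137, and 56.9 against inhibitory (230 and 95.5 in the 79). The noncoding gene E130114P18Rik, which overlaps Nfia on the other strand, had ratios of 46.0 and 32.0 (78.3 and 54.6 in the 79).

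Cd274, encoding the immune ligand PD-L1, had 43 UMIs in 26 of the 104 nuclei and ratios of 255 (148 to 453) and 111 (60.6 to 216), or 452 and 197 in the 79. All 43 came from nuclei with Reln. Its ratio to excitatory nuclei in sets 1, 2 and 3 was 278, 566 and 300. Microglial markers, an immune class, stood at 420 CPM in the 104 nuclei, from 129 UMIs, at 242 CPM in the 79, from 41 UMIs, and at 210 CPM in excitatory nuclei; their part in the result was not tested.

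Against inhibitory nuclei, Ramp1, a partner of the CGRP receptor, and Cobll1, a protein related to the actin nucleator cordon-bleu, were also among the highest, with ratios of 32.2 (23.7 to 43.5) and 27.4 (21.3 to 35.2). Their ratios to excitatory nuclei were 5.78 and 17.0. In the 79 the ratio of Ramp1 was 57.6 to inhibitory and 10.4 to excitatory nuclei.

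The rank of Ebf2 and Ptgds rested on a few nuclei. Ebf2 had a ratio of 525 to excitatory nuclei over the 104 but 12.2 (1.43 to 47.4) in the 79, where it had 2 UMIs. Ptgds, encoding a prostaglandin D synthase that oligodendrocytes express, had a ratio of 32.7 over the 104 and 3.33 in the 79, and 2.78 and 2.44 in sets 2 and 3. It moved with the oligodendrocyte markers, which were at 3239 CPM in the 104 and 325 CPM in the 79; their part in the result was not tested.

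**Figure D3:**
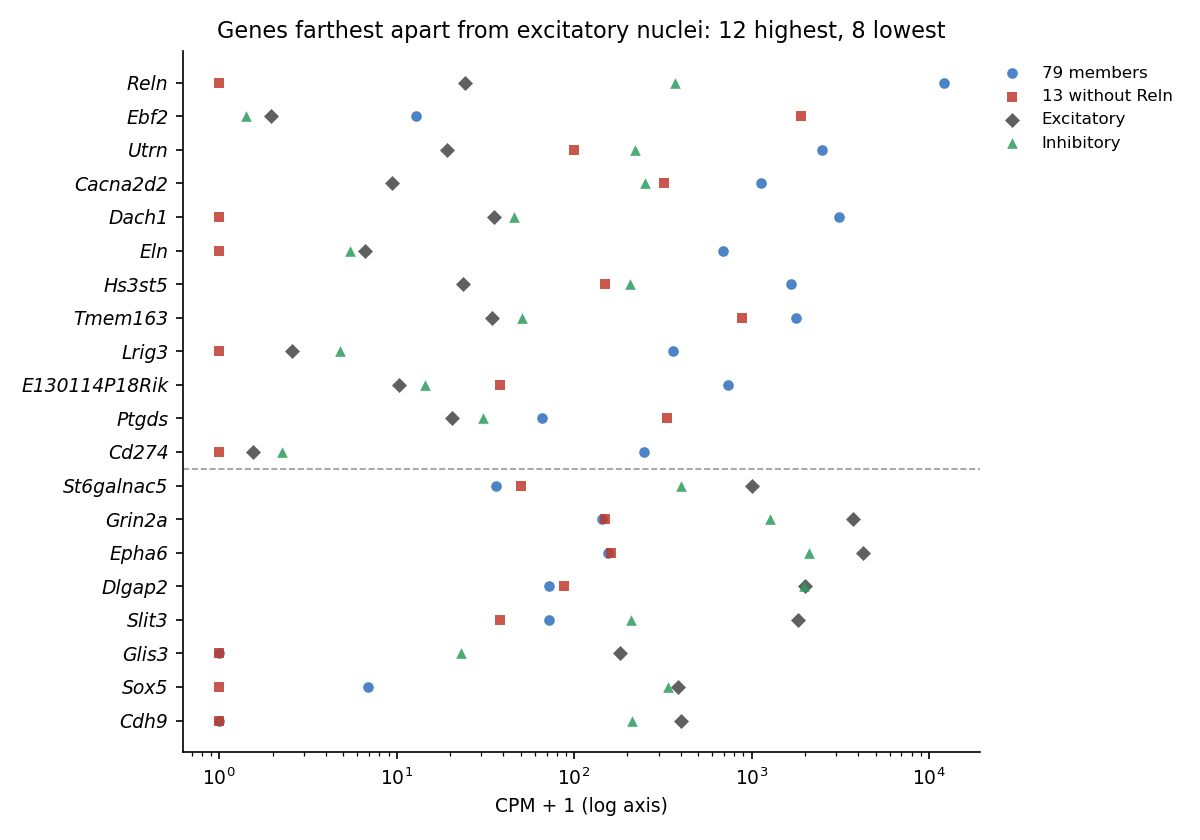
Levels (CPM + 1, log axis) of the 12 genes highest and the 8 lowest against excitatory nuclei, above and below the dashed line, in the 79 nuclei with Reln and few oligodendrocyte UMIs, the 13 without Reln, and the excitatory and inhibitory gates. Dach1, Eln, Lrig3 and Cd274 are at 0 in the 13 without Reln, while Ebf2 is at 1900 CPM there.

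The 8 lowest genes against excitatory nuclei had 0 to 42 UMIs in the 104. Cdh9, a synaptic cadherin, had 0 UMIs in the 104 against 398 CPM in excitatory nuclei, at least 40.7-fold lower when 3 UMIs over the group are taken as the limit. Glis3, a zinc finger factor, also had 0 UMIs and was at least 18.4-fold lower. Sox5, a factor of deep-layer neurons, had 1 UMI, a ratio of 0.00845 (0.000214 to 0.0471), or 0.0153 in the 79. Slit3, a secreted guidance cue, was at 52.1 against 1822 CPM, a ratio of 0.0286. Epha6, an ephrin receptor, had a ratio of 0.0321, Dlgap2, a postsynaptic scaffold protein, 0.0308, and St6galnac5, a sialyltransferase, 0.0324. Grin2a, the NMDA receptor subunit of mature synapses, was at 127 against 3752 CPM, a ratio of 0.0338 (0.0241 to 0.0463). Its ratio was 0.0313 in set 1, 0.0718 in set 2 and 0.0352 in set 3, where the same direction was a condition of the ranking.

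Among the 8 lowest against inhibitory nuclei, Cdh9 and Sox5 were also among the lowest against excitatory nuclei. Adarb2, an RNA-editing enzyme relative that marks interneurons of caudal origin, had a ratio of 0.0123 and Sgcz, a sarcoglycan, 0.0231 (0.00698 in the 79). Zfp804b had 3 UMIs and a ratio of 0.00966 (0.00199 to 0.0282), or 0.0175 in the 79, and Col25a1, a transmembrane collagen, 4 UMIs and 0.0130. Rasgrf2, a Ras activator, had 1 UMI and 0.00996 (0.000252 to 0.0555), with 0 UMIs in the 79. Myo5b, a motor protein, had 0 UMIs and was at least 22.5-fold lower, and Cdh9 was at least 21.6-fold lower. Sox5, with 1 UMI, had a ratio of 0.00967 (0.000245 to 0.0539), or 0.0176 in the 79.

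Of 23 further genes linked to Cajal-Retzius cells, 12 passed the level filter in each comparison. All 12 were higher against excitatory nuclei and 11 against inhibitory nuclei, beside backgrounds of 18.5% and 13%. A gene that passes only through a high level in the chosen nuclei must be higher, so the count supports nothing. Slc17a6, the vesicular glutamate transporter VGLUT2, was at 176 CPM, 33.6 times its excitatory level (24.4 to 45.7) and 74.9 times its inhibitory level (46.6 to 123). In sets 1, 2 and 3 its ratio to excitatory nuclei was 23.2, 44.8 and 45.6. It was found in 40 of the 104 nuclei (38.5%), 4.60% of excitatory and 1.20% of oligodendrocyte nuclei. Nhlh2, a helix-loop-helix factor of young neurons, had 25 UMIs in 22 nuclei, all with Reln, against 15 UMIs in 3219 excitatory nuclei, a ratio of 208 (105 to 424), or 347 in the 79.

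Calb2 and Ebf1 were higher in the sum, with ratios of 57.0 and 60.0 to excitatory nuclei. In the 79 these were 23.0 from 6 UMIs and 17.1 from 8 UMIs. Cxcr4, the receptor of the meningeal chemokine Cxcl12, had 5 UMIs in 5 nuclei, too few for more than the ratio of 17.6 (4.81 to 55.1) to inhibitory nuclei, and 0 after thinning. Gria4, an AMPA receptor subunit, was 2.74 times its excitatory level (0.679 per nucleus without scaling) and 0.610 times its inhibitory level. Cntnap2, a neurexin relative, was the most abundant of these genes with 11550 CPM and ratios of 2.88 and 2.48, or 0.714 and 0.734 without scaling; in the 79 the ratios were 4.57 and 3.95.

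Reelin's receptors were near the level of other neurons and the adaptor was below it. Lrp8 had 19 UMIs, with ratios of 1.09 (0.654 to 1.70) and 0.690 (0.414 to 1.08), and Vldlr 8 UMIs, with 0.893 (0.385 to 1.77) and 0.698 (0.299 to 1.39), so the intervals of both held 1. In the 79 the ratios of Vldlr were 0.405 and 0.317, from 2 UMIs. Dab1 was at 231 CPM against 3494 CPM in excitatory nuclei, a ratio of 0.0661 (0.0517 to 0.0834), and 0.184 against inhibitory nuclei. In the 79 these were 0.106 and 0.296. Its ratio to excitatory nuclei was 0.0330, 0.0967 and 0.131 in sets 1, 2 and 3. After thinning, Dab1 was found in 15.7% of the chosen nuclei and 15.5% of oligodendrocyte nuclei, against 90.1% of excitatory nuclei. Without thinning these shares were 23.1%, 22.2% and 98.4%. Of 24 reelin pathway genes that passed the filter against excitatory nuclei, 4 were higher (16.7%) and 2 lower (8.33%), near the 18.5% and 12.3% of all genes, with a median log2 ratio of 0.41 beside 0.29. One of the 4, Efnb3, an ephrin ligand, had a ratio of 3.97 over the 104, 1.11 in the 79 and 0.986 per nucleus without scaling.

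Of the receptor genes for synaptic input that passed the filter, more were lower than higher. A gene that passes only through the other gate must be lower, so these shares are a description. Of 20 glutamate receptor genes against excitatory nuclei, 4 were higher and 10 lower over the 104 (median log2 −1.02), and 2 and 12 in the 79 (median −1.99). The share higher over the 104, 20%, was near the 18.5% of all genes, and the share lower was 50% beside 12.3%. In the 79 the shares higher and lower were 10% and 60%, beside 18.5% and 16.4%. Against inhibitory nuclei the counts were 1 and 10 of 20 (−1.08), and 0 and 12 in the 79 (−3.04). There the shares higher and lower over the 104 were 5% and 50%, beside 13% and 10.2% of all genes. In the 79 they were 0% and 60%, beside 13.4% and 15.9%. Grin2b, the juvenile NMDA receptor subunit, had a ratio of 0.0961 to excitatory nuclei and 0.0353 in the 79. Grik1 and Grik3, kainate receptor subunits, had ratios of 0.0654 and 0.0916 to inhibitory nuclei (0.0332 for Grik3 in the 79). The genes above 1 depended on the nuclei included. Grm8, a metabotropic glutamate receptor, had a ratio of 2.95 to excitatory nuclei over the 104 and 0.154 in the 79, with 268 of its 277 UMIs in the 13 nuclei without Reln. Grm3, another, had 3.09 over the 104 and 1.05 in the 79, and per nucleus without scaling both were under 1 (0.732 and 0.767).

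Of 13 GABA and glycine receptor genes against excitatory nuclei 0 were higher and 5 lower (median log2 −0.96), and of 14 against inhibitory nuclei 0 and 7 (−0.88). The shares lower were 38.5% and 50%, beside 12.3% and 10.2% of all genes. In the 79 the lower ones numbered 7 and 9 (53.8% and 64.3%, beside 16.4% and 15.9%). Gabra5, the subunit of extrasynaptic receptors, had 3 UMIs and a ratio of 0.0520 (0.0107 to 0.152) to excitatory nuclei, and Gabra4 6 UMIs and 0.132. In the 79, with 1 UMI each, these were 0.0314 and 0.0399.

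Transmitter handling and chloride transport genes went both ways. Abat, which breaks down GABA, was at 4.67 times its excitatory level, and Slc1a1, a glutamate uptake carrier, at 0.316 times it (0.123 in the 79). Slc12a2, the chloride importer NKCC1, had ratios of 2.44 and 2.30 over the 104 but 0.340 (0.0701 to 0.995) and 0.321 (0.0660 to 0.941) in the 79, where it had 3 UMIs. It was 0.268 and 0.289 times its excitatory level in sets 2 and 3, and under 1 per nucleus without scaling (0.605 and 0.679). Slc12a5, the exporter KCC2, was at 0.388 and 0.344 times the excitatory and inhibitory levels, and at 0.128 and 0.114 in the 79, from 2 UMIs. Its 11 UMIs included 9 from the 13 nuclei without Reln.

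Voltage-gated channels were split. Against excitatory nuclei 6 of 38 were higher and 13 lower (18 in the 79), and against inhibitory nuclei 5 and 12 of 40 (7 and 18 in the 79). The share higher against excitatory nuclei, 15.8%, was near the 18.5% of all genes, and the share lower was 34.2% beside 12.3%. Against inhibitory nuclei these were 12.5% and 30%, beside 13% and 10.2%. In the 79 the shares higher and lower were 15.8% and 47.4% against excitatory nuclei, beside 18.5% and 16.4%. They were 17.5% and 45% against inhibitory nuclei, beside 13.4% and 15.9%. Besides Cacna2d2, Kcnip1, a potassium channel partner, was at 17.0 times its excitatory level. Kcnb2 and Kcnh7, potassium channel subunits, were at 4063 and 4209 CPM, 5.32 (5.01 to 5.65) and 5.31 times their inhibitory levels, or 8.74 and 8.35 times in the 79. Both ratios were above 1 in sets 1, 2 and 3, with 2.58, 7.61 and 9.76 for Kcnb2. Cacna1e, an R-type calcium channel, and Cacnb2, a channel subunit, were at 0.0593 and 0.0615 times their excitatory levels.

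Guidance genes numbered 6 higher and 11 lower of 29 against excitatory nuclei (5 and 18 in the 79), and 9 and 9 of 29 against inhibitory nuclei (5 and 18 in the 79). The share higher against excitatory nuclei, 20.7%, was near the 18.5% of all genes, and the share lower was 37.9% beside 12.3%. Against inhibitory nuclei both shares were 31.0%, beside 13% and 10.2%. In the 79 the shares higher and lower were 17.2% and 62.1% in both comparisons. All genes there were at 18.5% and 16.4% against excitatory nuclei and at 13.4% and 15.9% against inhibitory nuclei. Unc5b, a netrin receptor, was at 49.7 (35.4 to 68.8) and 10.6 (7.64 to 14.4) times the 2 levels, and Sema6a, a semaphorin, at 18.7 and 5.36 times. Ntng2, a membrane-bound netrin, was at 25.4 (18.5 to 34.6) times its inhibitory level (43.4 in the 79), and at 4.78, 41.5 and 43.8 times in sets 1, 2 and 3. Sema3e, with 2 UMIs, was at 0.0265 (0.00321 to 0.0959) of its excitatory level, and Unc5d at 0.0538 of its inhibitory level (0.00944 in the 79).

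Among 49 adhesion genes 8 were higher and 15 lower against excitatory nuclei (5 and 26 in the 79), and 4 and 19 against inhibitory nuclei (6 and 30). Cdh4, a classical cadherin, was the highest at 1104 CPM, 23.4 (20.8 to 26.3) and 8.47 (7.51 to 9.54) times the 2 levels, or 39.5 and 14.3 times in the 79. Nlgn1, a postsynaptic organizer of excitatory synapses, was at 0.0975 of its excitatory level, and Ptprt at 0.0421 of its inhibitory level (0.0600 and 0.0218 in the 79). Cntn2 was 4.74 times its excitatory level over the 104 and 1.03 times in the 79. Of the adhesion genes 30.6% and 38.8% were lower, beside 12.3% and 10.2% of all genes. The shares higher were 16.3% and 8.16%, beside 18.5% and 13%. In the 79 the shares lower were 53.1% and 61.2%, beside 16.4% and 15.9%. The shares higher in the 79 were 10.2% and 12.2%, beside 18.5% and 13.4%. Of 17 vesicle release genes 0 were higher and 2 lower (11.8%, near the 12.3% of all genes) against excitatory nuclei, and 0 and 0 against inhibitory nuclei. In the 79 these were 0 and 1, and 2 and 1. There the share lower was 5.88% in both comparisons, beside 16.4% and 15.9%. The shares higher were 0% and 11.8%, beside 18.5% and 13.4%. Sv2b, 1 of the 2 lower over the 104, had a ratio to excitatory nuclei of 0.105, and 0.176 in the 79.

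Most calcium genes that passed were lower, and as with the receptor genes the shares are a description. Of 14 calcium genes 1 was higher and 8 lower against excitatory nuclei (2 and 10 in the 79), and 2 and 9 against inhibitory nuclei. The shares lower were 57.1% and 64.3%, beside 12.3% and 10.2% of all genes. The shares higher were 7.14% and 14.3%, beside 18.5% and 13%. In the 79 the shares lower were 71.4% and 64.3%, beside 16.4% and 15.9%. The shares higher in the 79 were 14.3% and 21.4%, beside 18.5% and 13.4%. Ryr2, a calcium release channel, was at 0.0694 of its excitatory level over the 104 and 0.00813 (0.000984 to 0.0294) in the 79, where it had 2 UMIs. Cadps2, a vesicle priming factor, had 6 UMIs and a ratio of 0.0483. Of 28 plasticity genes 2 were higher and 14 lower (50%, beside 12.3% of all genes) against excitatory nuclei, and 2 and 7 of 25 (28%, beside 10.2%) against inhibitory nuclei. Adcy8, a calcium-stimulated adenylyl cyclase, was the highest, at 752 CPM and 6.62 (5.78 to 7.56) and 5.20 (4.51 to 5.96) times the 2 levels, or 10.2 and 8.04 times in the 79. Camk2a, the kinase of excitatory synapses, was at 0.0411 of its excitatory level and Itpka had 1 UMI and a ratio of 0.0297 (0.000753 to 0.166), or 0.0540 in the 79. Camk4 had 4 UMIs, all in the 79, and was at 0.0818 of its inhibitory level, or 0.148 in the 79.

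**Figure D4:**
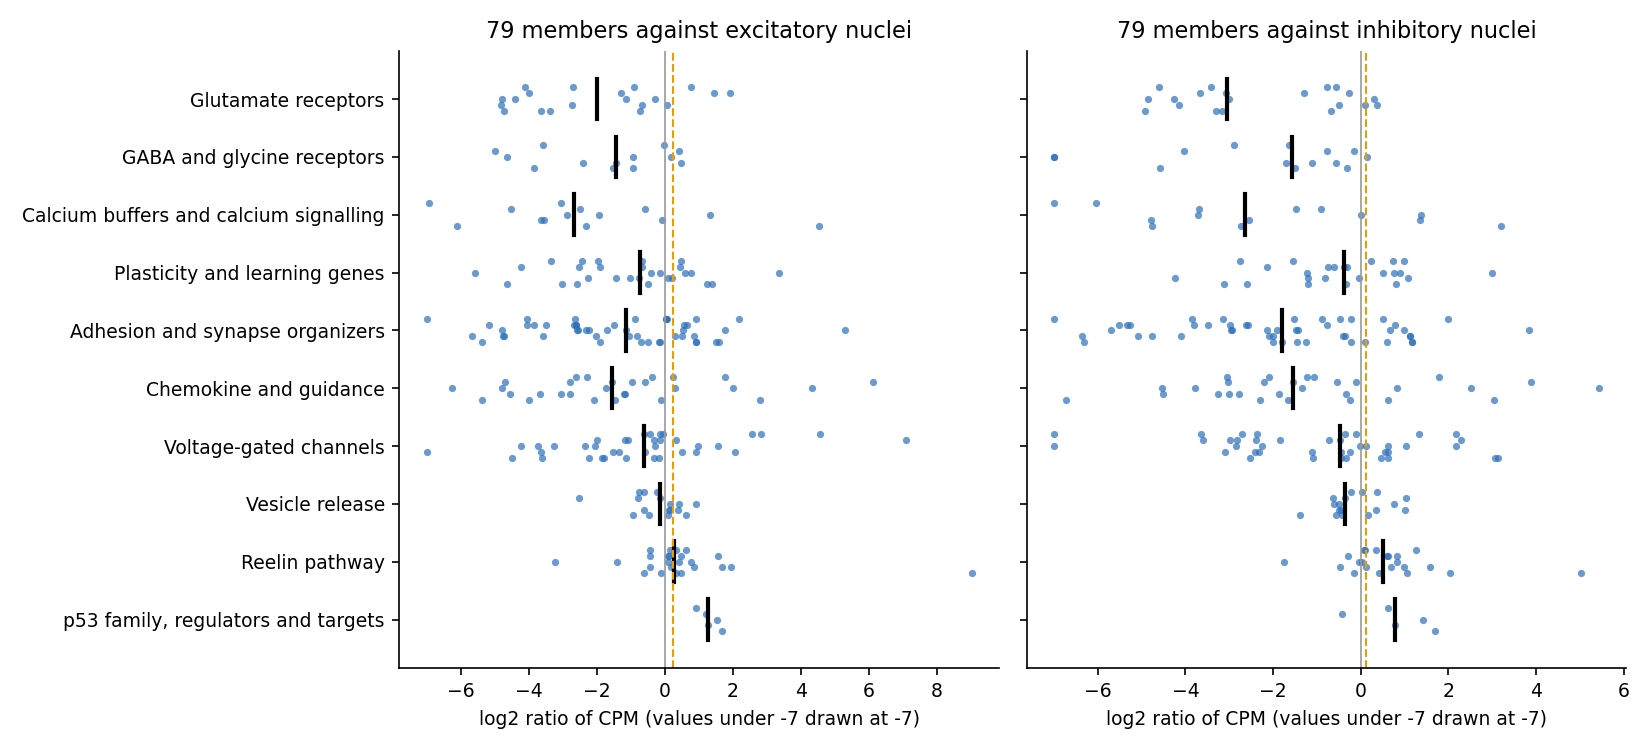
log2 ratios of CPM for genes of 10 lists in the 79 nuclei with Reln and few oligodendrocyte UMIs, against excitatory (left) and inhibitory (right) nuclei. Points are genes, black bars list medians and the dashed line the median of all genes compared (0.24 and 0.13); glutamate receptors have medians of −1.99 and −3.04.

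Of 16 genes of the p53 family, its regulators and its targets, 5 passed, all of them regulators or targets. Of 5 against excitatory nuclei 4 were higher (median log2 1.20, or −0.81 per nucleus without scaling) and of 5 against inhibitory nuclei 2. These shares, 80% and 40%, rest on 5 genes each and stand beside 18.5% and 13% of all genes. A gene that passes the filter only through the chosen nuclei must be higher, so these shares support nothing either. Mdm2, the ligase that restrains p53 and itself a p53 target, had 32 UMIs and ratios of 2.83 (1.93 to 4.01) and 2.86 (1.93 to 4.10). In sets 1, 2 and 3 its ratio to excitatory nuclei was 1.70, 5.05 and 1.07, and without scaling it was 0.702 and 0.846. Mdm4 was at 2.37 times its excitatory level and Sesn1 at 2.14 times its inhibitory level, or 0.589 and 0.633 without scaling.

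Of 18 forebrain region and layer factors 8 were higher and 5 lower against excitatory nuclei, and of 19 against inhibitory nuclei 8 and 7. The shares higher were 44.4% and 42.1%, beside 18.5% and 13% of all genes. The shares lower were 27.8% and 36.8%, beside 12.3% and 10.2%. These shares depend on the level filter in the same way and are a description. Nr2f2, the regional factor COUP-TFII, was at 14.9 (11.4 to 19.2) and 9.78 (7.37 to 12.8) times the 2 levels. Cux1 was at 4.17 times its excitatory level and Nfix at 8.29 times its inhibitory level. Meis2, a homeodomain factor, had 6 UMIs and was at 0.0570 (0.0209 to 0.124) of its inhibitory level, or 0.0172 in the 79. Ldb2, a LIM-domain cofactor, had 5 UMIs and a ratio of 0.0462 to excitatory nuclei, or 0.0168 in the 79.

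Of the growth and survival genes, Gfra1, a GDNF receptor, was at 4.68 and 2.66 times the excitatory and inhibitory levels (0.786 for the latter without scaling), but at 0.421 and 0.197 times in set 1. In sets 2 and 3 its ratio to excitatory nuclei was 8.31 and 8.48. In the 79 its ratios to excitatory and inhibitory nuclei were 7.34 and 4.17. Fgf13, an intracellular growth factor relative, was at 0.0515 of its inhibitory level (0.0104 in the 79). Among Wnt, BMP and hedgehog genes Rspo3, a Wnt amplifier, was at 2.76 (0.686 without scaling) and 12.9 (9.30 to 17.5) times the 2 levels (4.19 and 19.5 in the 79), and Dkk3 at 12.4 times its inhibitory level. Pcsk1, a prohormone convertase, had a ratio of 4.85 to excitatory nuclei over the 104 and 0.339 in the 79, with 1 UMI.

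The series was made in a study of Setd1b, a histone H3 lysine 4 methyltransferase. In the 104 nuclei Setd1b had 11 UMIs, 35.8 CPM, with ratios of 2.30 (1.14 to 4.14) and 1.86 (0.918 to 3.40) to excitatory and inhibitory nuclei; per nucleus without scaling the former was 0.570. Its ratio to excitatory nuclei was 1.90, 2.04 and 2.44 in sets 1, 2 and 3. Of the 6 genes of this enzyme family 2 passed the filter, with 0 beyond 2-fold in each comparison. Kmt2a had ratios of 1.53 and 1.48, and Kmt2c 1.11 and 1.23. All samples were wild type, so nothing here bears on the loss of Setd1b.

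Gene length differed with direction. The median span was 71.9 kb for all genes compared with excitatory nuclei, 68.7 kb for the higher and 161 kb for the lower ones. Against inhibitory nuclei it was 70.6, 75.6 and 194 kb. The part of gene length in the lower levels was not tested.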

How the data were processed

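Nuclei from frozen hippocampus were stained with 7AAD, sorted and loaded at about 5000 per sample, per the labels' protocols. The authors deposited 1 matrix of UMI counts, unscaled, and the submitters' processing notes list Cell Ranger 4.0.0 and the build GRCm38. Whether intronic reads were counted is not given in the sources used here. It holds 24837 genes, 15661 barcodes and 101300889 UMIs; 101 barcodes had under 500 UMIs and were left out. The 104 nuclei and all gene lists were chosen with earlier results of these data known, so none is independent support. From the counts, CPM was computed with Python 3.11.15, scipy 1.17.1 and scanpy 1.11.5. Ratios carry exact conditional binomial intervals, and no p-value was computed. Floors are 3 UMIs. The genes named are, per comparison, the 12 highest and 8 lowest by (CPM + 5) over (CPM + 5) among those with 1 direction in sets 1, 2 and 3, the 2 highest and 2 lowest of each list, and 14 chosen genes; those of the nuclei without Reln were chosen after their values were seen. The ratio computation was tested on simulated data. Spans and coordinates come from GENCODE (24797 genes matched). Alternatives included other rules, scalings, level filters, leaving out each barcode set, and subsets of the nuclei. Some genes that the naming rule selects are not reported here.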

Additional observations from a re-analysis of the deposited data

How the results depend on the processing

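No paired analysis was possible because all samples form 1 group and the nuclei carry no sample. Gene counts, list medians and ratios were recomputed under other settings. Of these, 76, 726 and 1908 stayed close to the reported value and 16, 54 and 594 moved. A change of direction was counted only for ratios reported at 2 or more or 0.5 or less, and for log2 medians of at least 1 in size. Values nearer to no difference that crossed it are among the close or moved ones. Kmt2a against excitatory nuclei, for example, ranged from 0.380 to 1.90. Within that limit 3 list medians and 17 ratios changed direction. A further 1 and 16 did so per nucleus without scaling, which multiplies every ratio of a comparison by 0.248 or 0.295, so that ratios not far above 1 must fall below it. With 5 UMIs from 3 genes required, 60 nuclei remained, and the Reln ratios to excitatory, inhibitory and neurogliaform-like nuclei were 377, 23.9 and 9.35. They were 403, 25.5 and 9.98 in nuclei with Trp73. The first pair was 485 and 22.9 as a mean of each nucleus's CPM, and 434 and 21.8 after thinning to 1000 UMIs. With 5 CPM added the first was 256, and as medians over sets the latter pair were 17.8 and 7.01. Without set 2 the ratios were 395, 16.9 and 6.38, and without set 7 342, 21.3 and 8.36. The neurogliaform-like ratio was 8.70 without set 1 and 8.65 without set 3. Chosen after seeing the data, the 91 nuclei with Reln gave 422, 26.7 and 10.4, those with under 10 oligodendrocyte UMIs 363, 23.0 and 9.0, and the 79 with both 519, 32.8 and 12.8.

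Counts of higher and lower genes depended on the level filter. At 20 CPM 1565 and 1097 genes were higher against excitatory and inhibitory nuclei. At 100 CPM 314 were higher and 315 lower, and 243 and 273. With no minimum they were 4071 and 6791, and 3122 and 5926. As medians over sets 1057 were higher against inhibitory nuclei. Per nucleus without scaling, 119 were higher and 3661 lower against excitatory and 98 and 3731 against inhibitory nuclei, because the nuclei hold fewer UMIs, and the Reln ratios were 77.1, 5.80 and 2.19.

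Only ratios reported at 2 or more are listed here. Without scaling, those to excitatory nuclei fell under 1 for Cntnap2 (0.714), Efnb3 (0.986), Gria4 (0.679), Grm3 (0.767), Grm8 (0.732), Mdm2 (0.702), Mdm4 (0.589), Rspo3 (0.686), Setd1b (0.570) and Slc12a2 (0.605), and the p53 list median was −0.81. Those to inhibitory nuclei did for Cacna2d2 (0.898), Cntnap2 (0.734), Gfra1 (0.786), Mdm2 (0.846), Sesn1 (0.633) and Slc12a2 (0.679). Grm8 was 0.843 in nuclei with Trp73, 0.130 with Reln and 0.154 in the 79. Pcsk1 was 0.815 as a median over sets, 0.253 with Reln and 0.339 in the 79. Slc12a2 was 0.807 and 0.770 after thinning, 0.289 and 0.343 as medians over sets, 0.340 and 0.321 in the 79, and 0.973 to inhibitory nuclei with under 10 oligodendrocyte UMIs. In the same nuclei Efnb3 was 0.776 and Grm3 0.960. Cxcr4 was at 0 in the nuclei after thinning, a ratio of 0 to both. The median of the LIM list against excitatory nuclei was −1.64 as reported, 0.27 at 20 CPM and 0.73 in the 79 with that subset's own filter, and that of the EBF list against inhibitory nuclei −0.87 without set 1. Apart from the scaling, the cause of these changes was not tested. Depth limits genes with few UMIs: 3 UMIs over the 104 are 9.77 CPM.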
